A study of Homo sapiens with 4 samples.

Results

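The sterol genes described here are 10 genes that SREBP2, the transcription factor of cholesterol homeostasis, is known to drive. They are the enzymes HMGCS1, IDI1, FDPS, SQLE, LSS, MSMO1, SC5D and DHCR7, the feedback protein INSIG1 and the sterol carrier STARD4. The 10 were chosen with earlier results of these data known, and their probe sets were taken by symbol. Every probe set whose annotation names exactly 1 gene, that gene being one of the 10, was kept. This gave 30 of the 49293 probe sets on the array, 1 to 5 per gene, and 10 of the 18132 genes with a single-gene probe set. No probe set of these genes named a second gene.

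The cells were U87MG, an established human glioma line. In the first group they carried PC-490, an overexpression plasmid for the microRNA miR-490, and in the second its control plasmid PCDNA, given as PCDNA3.1 (+) in the series title. Both groups were transfected and harvested 48 h later, so a response that transfection gives to both cannot be seen. RNA of each group was run on 2 PrimeView 3' expression arrays, from 100 ng of total RNA per array. Whether the 2 arrays of a group came from separate cultures is not in the labels, so the p-values reflect the spread between arrays, possibly a technical one. All values are log2 expression per probe set as deposited, and the 4 array medians lay between 5.15 and 5.17.

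A cell makes cholesterol from acetyl-CoA. The early enzymes lead through mevalonate to farnesyl diphosphate, squalene and lanosterol follow, and a last group of enzymes trims lanosterol to cholesterol. When sterol in the endoplasmic reticulum runs low, the escort protein SCAP carries SREBP2 to the Golgi, where proteases release the part that enters the nucleus and activates these genes. When sterol is plentiful, INSIG proteins hold SCAP back, so the transcripts fall together. In the brain, where lipoproteins of the blood do not enter, most cholesterol is made by local cells, and glioma cells are known to need a steady supply of it.

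The mature forms of the overexpressed microRNA are shown because the comparison rests on them. Both sequences are from RefSeq (GRCh38.p14), the seed, bases 2 to 8, is in capitals, and the arms lie at chr7:136903205-136903224 and chr7:136903242-136903263 on the plus strand. Their seeds differ, and neither RNA was measured on these arrays, so the values below hold no check of the overexpression.
hsa-miR-490-5p: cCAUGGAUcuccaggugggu
hsa-miR-490-3p: cAACCUGGaggacuccaugcug

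The promoters of the sterol genes are shown for the letters that SREBP2 and its partners are known to read. In the 250 bases before each RefSeq start site, 9 of the 10 genes, all but SQLE, were matched to at least 1 window. Each was searched on both strands for TCACNCCA, the core of the sterol regulatory element, for TCACGTGA, an E-box that SREBPs can also bind, and for CCAAT, the box of their partner NF-Y. CCAAT stood in a window of all 9 genes, against 32.0% of 35116 windows and 37.0% of 27305 genes. TCACNCCA was found for MSMO1 alone among the 9, against 3.2% of windows and 3.92% of genes. TCACGTGA was found for INSIG1 alone, against 0.854% of windows and 1.04% of genes. Genes with several windows counted if any window held the letters, and matches were allowed to overlap. A match is a run of letters and not a shown binding site.

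Stretches of 60 bases that hold these letters are given for 4 of the 9 genes and for SREBF2, the gene of SREBP2 itself. HMGCS1 and STARD4 are shown because they held the largest differences by gene or by probe set. MSMO1 and INSIG1 are shown because they alone held the longer motifs, and SREBF2 because its window holds TCACNCCA and CCAAT together. Matches on either strand are in capitals (ATTGG is CCAAT read on the other strand), none of those printed overlap, and every stretch reads 5′ to 3′ on the strand of its gene in GRCh38.p14. They lie at chr5:43313508-43313567 (minus strand) for HMGCS1, chr5:111512649-111512708 (minus) for STARD4, chr4:165327479-165327538 (plus) for MSMO1, chr7:155297796-155297855 (plus) for INSIG1 and chr22:41832958-41833017 (plus) for SREBF2.
HMGCS1: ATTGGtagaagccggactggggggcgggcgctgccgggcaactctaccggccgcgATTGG
STARD4: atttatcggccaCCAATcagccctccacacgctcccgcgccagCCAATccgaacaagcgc
MSMO1: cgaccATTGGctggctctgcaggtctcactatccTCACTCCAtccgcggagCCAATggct
INSIG1: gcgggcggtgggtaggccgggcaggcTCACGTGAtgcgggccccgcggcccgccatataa
SREBF2: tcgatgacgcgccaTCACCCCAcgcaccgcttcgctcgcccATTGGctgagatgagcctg

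The comparison asks how these transcripts differ when miR-490 is overexpressed. Nearly all sterol probe sets had slightly lower means with miR-490, and none passed the test. Of the 30 probe sets, 28 had a lower mean with miR-490, 1 a higher mean and 1 the same mean. Over all 49293 probe sets 47.8% had a lower mean, and over those above the median level 50.0%. The median log2 fold change of the 30 sets was -0.105, with a range of -0.36 to 0.005, against a median of 0.00 over all probe sets. In the limma fit, adjusted by Benjamini-Hochberg over the 49293 probe sets, 0 member sets passed an adjusted p of 0.05 (adjusted p 0.90 to 1.00), and 0 of all sets did, a background of 0.0%. At an unadjusted limma p under 0.05 there were 4 member sets, all lower, against 2.48% of all sets in that direction. These 4 belong to HMGCS1, SQLE and, with 2 sets, STARD4. An exact permutation test of 2 arrays against 2 cannot give a two-sided p under 0.333. In RNA from whole cultures, fewer cells that express a gene and less RNA per cell cannot be told apart.

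In 15 of the 30 sets both miR-490 arrays lay below both control arrays, and in 0 sets above them. Over all probe sets the first pattern held in 15.6% and the second also in 15.6%. Over sets above the median level the shares were 17.6% and 14.0%. Of the 30 sets, 26 lie above the median level, and 14 of these 26 showed the first pattern. Probe sets of 1 gene measure the same RNA and are not independent. With 1 value per gene, the mean over its sets, all 10 genes had a lower mean with miR-490, against 47.2% of 18132 genes. Their median log2 fold change was -0.11, with a range of -0.21 to -0.038, against 0.005 over all genes. The groups did not overlap in 6 of the 10 genes, against 15.6% of all genes. Since the 10 genes were chosen with earlier results of these data known, these contrasts with all probe sets and genes are not independent support.

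**Figure D1:**
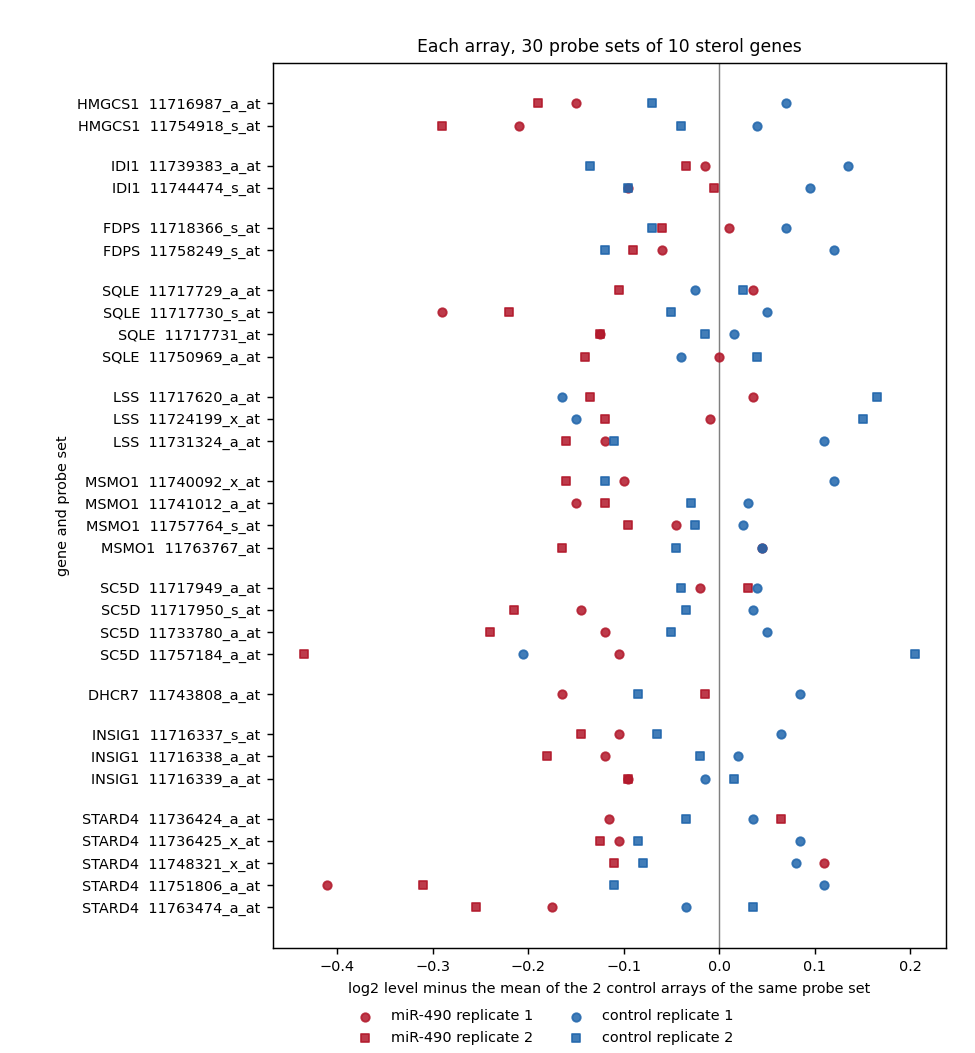
Level of each of the 30 probe sets on each array, as the log2 level minus the mean of the 2 control arrays of that set (x axis), by gene and probe set (y axis). Red marks are the miR-490 arrays and blue marks the control arrays, with circles for replicate 1 and squares for replicate 2. The red marks lie left of both blue marks in 15 sets, and control replicate 1 lies right of control replicate 2 in 23 sets.

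HMGCS1, IDI1 and FDPS act before squalene. HMGCS1, which makes HMG-CoA from acetyl-CoA units, had the largest difference of the 10 genes averaged over its sets. Its set 11754918_s_at was at 7.24 and 7.16 on the miR-490 arrays, against 7.49 and 7.41 on the control arrays. Its other set, 11716987_a_at, was at 8.21 and 8.17 with miR-490, against 8.43 and 8.29 in controls. Both miR-490 arrays were below both control arrays in each set. The first set averaged 7.20 ± 0.057 with miR-490 and 7.45 ± 0.057 in controls (SD, n = 2 each), a log2 fold change of -0.25 with a standard error of 0.073 and a 95% interval of -0.44 to -0.058. Its unadjusted limma p was 0.0208 and its adjusted p 0.90. The second gave -0.17 (95% interval -0.38 to 0.037).

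IDI1 isomerises isopentenyl diphosphate, and FDPS joins such units into farnesyl diphosphate. IDI1 set 11739383_a_at was at 8.66 and 8.64 with miR-490, against 8.81 and 8.54 in controls. The miR-490 values lay between the control values, and the log2 fold change was -0.025 (95% interval -0.31 to 0.26). IDI1 set 11744474_s_at, at 7.72 and 7.81 against 7.91 and 7.72 in controls, gave -0.05. FDPS set 11758249_s_at was at 8.50 and 8.47 with miR-490, against 8.68 and 8.44 in controls, and its set 11718366_s_at at 8.57 and 8.50, against 8.63 and 8.49. Both FDPS sets overlapped, with log2 fold changes of -0.075 and -0.025. For both genes control replicate 1 alone stood high. Without it the mean over the sets was higher with miR-490, at 0.078 for IDI1 and 0.045 for FDPS. RefSeq lists 10 pseudogenes named after FDPS and 3 after IDI1, and whether the probes also bind their transcripts was not tested.

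SQLE and LSS carry squalene to lanosterol. SQLE, squalene epoxidase and a rate-limiting enzyme of the later pathway, had 4 probe sets that spread from -0.255 to -0.035. Set 11717730_s_at was at 7.63 and 7.70 with miR-490, against 7.97 and 7.87 in controls, and set 11717731_at at 6.82 on both miR-490 arrays, against 6.96 and 6.93. The groups did not overlap in these 2 sets. The first averaged 7.67 ± 0.0495 with miR-490 and 7.92 ± 0.071 in controls (SD, n = 2 each), a log2 fold change of -0.255 with a standard error of 0.075 and a 95% interval of -0.45 to -0.059. Its unadjusted limma p was 0.0208 and its adjusted p 0.90. Sets 11717729_a_at, at 8.26 and 8.12 against 8.2 and 8.25 in controls, and 11750969_a_at, at 8.71 and 8.57 against 8.67 and 8.75, overlapped. In both of these miR-490 replicate 1 was as high as the controls, so the sets of SQLE did not share 1 pattern.

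LSS, lanosterol synthase, closes oxidised squalene into the first sterol. Its set 11724199_x_at was at 8.92 and 8.81 with miR-490, against 8.78 and 9.08 in controls, and set 11717620_a_at at 7.95 and 7.78, against 7.75 and 8.08. Here control replicate 2 was the high array and the miR-490 values lay between the controls, with log2 fold changes of -0.065 and -0.05. Set 11731324_a_at, at 5.85 and 5.81 with miR-490 against 6.08 and 5.86 in controls, did not overlap, by a gap smaller than the spread of its controls. Without control replicate 2 the mean log2 fold change over the LSS sets was near 0, at -0.017.

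MSMO1, SC5D and DHCR7 work on lanosterol and its products. MSMO1 removes methyl groups at carbon 4 of the sterol ring. Its set 11741012_a_at was at 9.71 and 9.74 with miR-490, against 9.89 and 9.83 in controls, and set 11757764_s_at at 10.07 and 10.02, against 10.14 and 10.09. Neither set overlapped, and their log2 fold changes were -0.135 (95% interval -0.31 to 0.04) and -0.07 (-0.25 to 0.11). Set 11740092_x_at, at 8.32 and 8.26 against 8.54 and 8.30, gave -0.13 and overlapped. Its value was -0.01 without control replicate 1 and -0.25 without control replicate 2. Set 11763767_at was dim, at 2.88 and 2.67 with miR-490 and 2.88 and 2.79 in controls.

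SC5D, which puts in the double bond at carbon 5, had 4 sets from -0.27 to 0.005. Set 11717950_s_at was at 6.92 and 6.85 with miR-490, against 7.10 and 7.03 in controls, and set 11733780_a_at at 5.30 and 5.18, against 5.47 and 5.37. The groups did not overlap in either, and both gave a log2 fold change of -0.18, with 95% intervals of -0.37 to 0.006 and -0.39 to 0.032. The set with the largest difference of the gene, 11757184_a_at, was below the median level and the least even, at 4.93 and 4.60 with miR-490 against 4.83 and 5.24. Its log2 fold change of -0.27 became -0.475 without control replicate 1 and -0.065 without control replicate 2, and it was -0.435 and -0.105 without miR-490 replicate 1 and 2. The set with the 1 positive value of all 30, 11717949_a_at, was at 5.46 and 5.51 against 5.52 and 5.44. DHCR7 makes the last reduction to cholesterol in the Kandutsch-Russell branch. Its only set, 11743808_a_at, was at 8.22 and 8.37 with miR-490, against 8.47 and 8.30 in controls, and overlapped (log2 fold change -0.09, 95% interval -0.34 to 0.16). Without control replicate 1 this value was -0.005.

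INSIG1 and STARD4 are SREBP targets outside the enzyme chain. INSIG1, which retains SCAP in the endoplasmic reticulum and is itself induced when SREBPs are active, had 3 probe sets. Its set 11716337_s_at was at 10.08 and 10.04 with miR-490, against 10.25 and 10.12 in controls. Set 11716338_a_at was at 9.12 and 9.06, against 9.26 and 9.22, and set 11716339_a_at at 8.98 on both miR-490 arrays, against 9.06 and 9.09. The groups did not overlap in all 3 sets, the only gene with 3 or more sets for which this held. The log2 fold changes were -0.125 (95% interval -0.33 to 0.077), -0.15 (-0.33 to 0.027) and -0.095 (-0.26 to 0.073). All 3 intervals reach above 0, and the unadjusted limma p was 0.17, 0.0803 and 0.202.

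STARD4 carries cholesterol between membranes. It had the largest difference of any member set and also the set with no difference. Set 11751806_a_at was at 5.33 and 5.43 with miR-490, against 5.85 and 5.63 in controls. It averaged 5.38 ± 0.071 with miR-490 and 5.74 ± 0.16 in controls (SD, n = 2 each), a log2 fold change of -0.36 with a standard error of 0.101 and a 95% interval of -0.62 to -0.096, or 0.779 of the control level. Its unadjusted limma p was 0.0177 and its adjusted p 0.90. Set 11763474_a_at, which lies below the median level, was at 3.56 and 3.48 with miR-490, against 3.70 and 3.77 in controls. That is a log2 fold change of -0.215, with an unadjusted limma p of 0.0331 and an adjusted p of 0.90. Set 11736425_x_at, at 6.59 and 6.57 against 6.78 and 6.61, gave -0.115 and did not overlap. Sets 11748321_x_at, at 5.03 and 4.81 against 5.0 and 4.84, and 11736424_a_at, at 5.09 and 5.27 against 5.24 and 5.17, overlapped and gave 0.00 and -0.025. The log2 fold changes of the 5 STARD4 sets thus spread more widely than those of the 10 genes averaged over their sets.

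**Figure D2:**
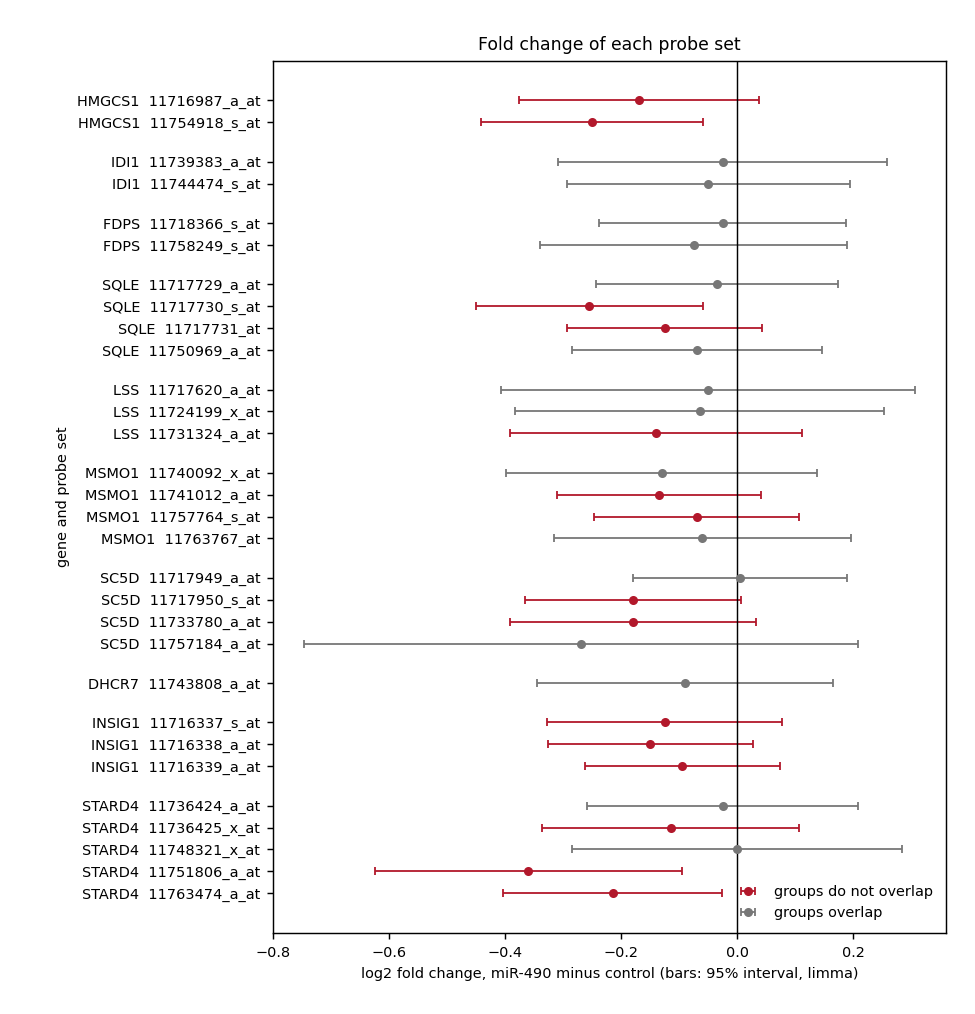
Log2 fold change of each probe set, miR-490 minus control (x axis), with its 95% interval from limma, by gene and probe set (y axis). Red marks sets whose groups do not overlap and grey marks the others. Only 4 intervals, of 1 HMGCS1 set, 1 SQLE set and 2 STARD4 sets, lie wholly below 0, and 28 of 30 points are left of 0.

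The size of these differences overlaps that between replicates, as differences between single arrays show. Over the 30 sets the median log2 difference was -0.15 for miR-490 replicate 1 minus control replicate 1 and -0.075 for miR-490 replicate 1 minus control replicate 2. For miR-490 replicate 2 it was -0.195 against control replicate 1 and -0.11 against control replicate 2. All 4 medians between groups were below 0, while over all probe sets each was 0.00. Within groups, control replicate 1 minus control replicate 2 had a median of 0.085 over the 30 sets, with 23 sets higher in control replicate 1. MiR-490 replicate 1 minus miR-490 replicate 2 had a median of 0.045. Over all sets these medians were -0.01 and 0.00. The 2 control arrays thus differed in these 30 sets by more than miR-490 replicate 1 differed from control replicate 2. For the other pairs between groups, the median over these sets was larger in size than both medians within groups.

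Without control replicate 1 the median over the 30 sets was -0.08, with 23 of 30 sets and 8 of 10 genes lower. Without control replicate 2 it was -0.16, with 28 sets and 10 genes lower. Without miR-490 replicate 1 it was -0.13, with 28 sets lower, and without miR-490 replicate 2 -0.105, with 24 sets lower.

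**Figure D3:**
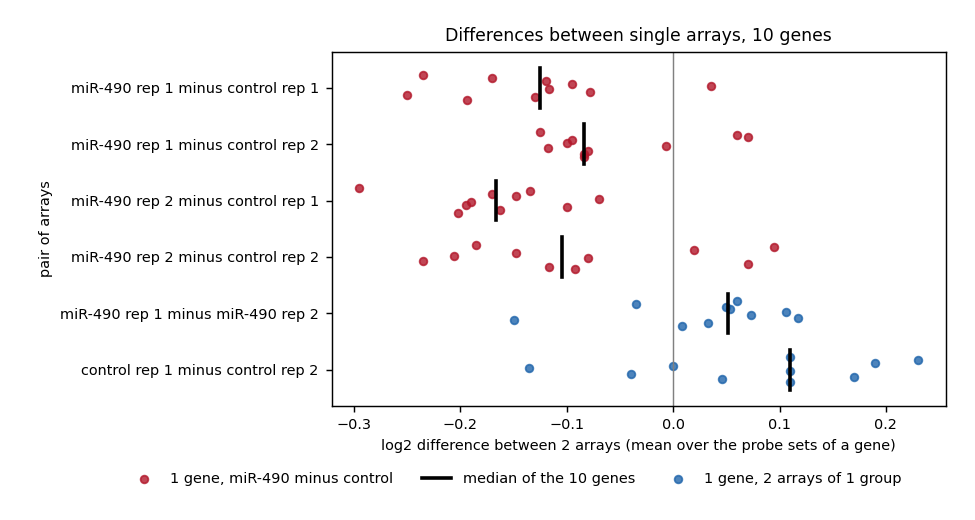
Differences in log2 level between single arrays (x axis) for each of the 10 genes, as the mean over the probe sets of a gene, by pair of arrays (y axis). Red points are miR-490 minus control, blue points 2 arrays of 1 group, and black bars the median of the 10 genes. The medians between groups run from -0.17 to -0.084, and the median of control replicate 1 minus control replicate 2 is 0.11.

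Other genes of sterol handling were read through the brightest probe set of each gene, and on these sets the median log2 fold change of the 10 genes was -0.08. Their groups did not overlap in 5 of the 10, against 16.1% of all such sets with miR-490 lower. Of 18132 such sets 47.3% had a lower mean with miR-490. No gene of these lists passed the adjusted threshold in either direction. The 10 genes and these lists were chosen with earlier results of these data known, so contrasts between them are not independent support. Of the 9 other cholesterol synthesis enzymes analysed, 3 had lower and 5 higher means with miR-490, 1 the same, with a median of 0.005. The groups did not overlap in 1 lower gene, MVK, and in 3 higher genes, PMVK, MVD and HSD17B7. Over the brightest sets of all 18132 genes, miR-490 was higher without overlap in 16.5%. The mevalonate kinase gene MVK was at 7.01 and 7.00 with miR-490, against 7.10 in both controls, while its other set gave a log2 fold change of -0.005. HSD17B7, a sterol ketone reductase, was dim, at 3.06 on both miR-490 arrays against 3.0 and 2.82. PMVK and MVD, which carry on from MVK to isopentenyl diphosphate, had log2 fold changes of 0.08 and 0.115. The 2 other sets of PMVK gave 0.0 and 0.07, and MVD had only 1 set.

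The SREBP machinery had a median of -0.0225 over 6 genes, 4 lower and 2 higher. SREBF2 was at 7.61 and 7.72 with miR-490, against 7.55 and 7.76 in controls, and its 2 other sets gave log2 fold changes of -0.20 and 0.05. SREBF1, the gene of the related factor SREBP1, was at 8.21 and 8.09, against 8.16 and 8.29. Its 2 other sets gave log2 fold changes of -0.185 and 0.16. SCAP was at 8.98 on both miR-490 arrays, against 8.98 and 8.95. INSIG2, the second INSIG protein, was at 9.98 and 9.96, against 9.99 and 9.97. These 4 genes overlapped between the groups. MBTPS1, the first protease that cuts SREBPs, was at 8.76 and 8.64, against 8.78 and 8.79, and its other set gave -0.295. MBTPS2 was at 10.02 and 10.01, against 10.05 in both controls, and its other set gave 0.01. MBTPS1 and MBTPS2 did not overlap, 2 of the 6 genes, against 16.1% of the brightest sets of all genes with miR-490 lower.

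TMEM97, a sterol-regulated membrane protein that binds the NPC1 cholesterol transporter, was the 1 analysed gene of a list of 3 further SREBP2 targets. It was at 7.25 and 7.28 with miR-490, against 7.46 and 7.55 in controls. Its log2 fold change was -0.24 (95% interval -0.42 to -0.056), with an unadjusted limma p of 0.0209 and an adjusted p of 0.90. Its 4 other sets were all lower, from -0.18 to -0.065.

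Fatty acid genes driven by SREBP1 had 8 of 9 lower and a median of -0.05. SCD, the desaturase that makes oleate, was at 12.29 and 12.24 with miR-490, against 12.43 and 12.37 in controls. ACACA, which makes malonyl-CoA, was at 8.2 and 8.19, against 8.26 and 8.33. Neither overlapped, and the other sets of SCD (-0.245 to -0.195) and of ACACA (-0.415 to -0.14) were all lower.

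Genes of sterol storage, export from lysosomes and turnover had 4 of 5 lower and a median of -0.07. SOAT1, which esterifies cholesterol, was at 7.58 and 7.62, against 7.73 and 7.75 in controls, and NPC2, a lysosomal sterol carrier, at 11.43 and 11.40, against 11.53 and 11.45. Targets of LXR, the receptor that oxysterols switch on when sterol is plentiful, had 4 of 6 lower, 1 higher and a median of -0.065. SMPDL3A, a phosphodiesterase, was at 6.47 and 6.42 with miR-490, against 6.58 and 6.63, and the sterol exporter ABCG1 was dim, at 3.74 and 3.70 against 3.88 and 3.85. Of the 4 other ABCG1 sets 2 were lower, and they spanned -0.22 to 0.09.

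**Figure D4:**
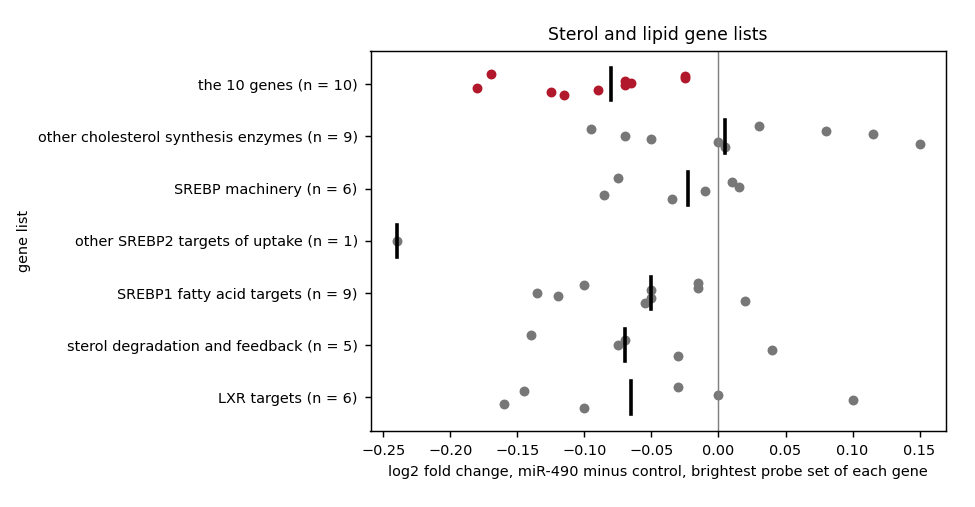
Log2 fold change, miR-490 minus control, of the brightest probe set of each gene (x axis) by gene list (y axis). Each point is 1 gene, black bars are list medians, and red marks the 10 sterol genes. All 10 red points lie left of 0, with a median of -0.08, while the other cholesterol synthesis enzymes centre on 0.005. The 10 genes and the lists were chosen with earlier results of these data known, so this contrast is not independent support.

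Markers of the line and of other cell types were read on the same arrays. Of the 7 glial and glioma markers, VIM, a mesenchymal filament gene, averaged 13.92 over the 4 arrays, FN1 13.455, CD44 11.97 and CHI3L1 11.12. NES was low, at 4.15, as were the astrocyte markers GFAP and S100B, at 5.71 and 3.38. Of 4 leukocyte markers the brightest, CD3E, averaged 3.38, of 4 epithelial markers CLDN4 6.18, of 4 endothelial markers KDR 6.96 and of 4 neuronal markers TUBB3 10.01. The mean level of the leukocyte list was 3.02 and 3.09 on the miR-490 arrays, against 3.14 and 3.18 on the control arrays. That of the epithelial list was 4.03 on both miR-490 arrays, against 4.03 and 4.04, and that of the endothelial list 4.94 and 4.85, against 4.76 and 4.92. The neuronal list was at 7.22 and 7.21, against 7.17 and 7.27, and the glial and glioma list at 9.03 and 9.12, against 9.15 and 9.09. The median log2 fold change of the leukocyte list, dim at 2.54 to 3.38, was -0.1475, with 3 markers lower and 1 higher. It was -0.0275 for the epithelial, 0.03 for the endothelial and 0.0225 for the neuronal list. For the glial and glioma list it was -0.065, with 5 markers lower and 2 higher. The sterol genes had -0.08 on the same measure. The part of other cells in the sterol genes' differences was not tested. Across all probe sets the arrays correlated at r = 0.9979 within the miR-490 group, 0.9975 within the control group and 0.9976 to 0.9979 between groups.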

How the data were processed

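The authors deposited log2 values, 1 per probe set, for 4 Affymetrix PrimeView arrays, and the submitters' processing notes name RMA as their method. RMA subtracts background, makes the arrays alike and sums up the probes of a set. It therefore hides a shift common to most transcripts and can narrow differences between dim probe sets. The program used for RMA is not given in the sources used here, and without detection calls or scan dates no batch was tested. Gene names come from the platform annotation: 44988 probe sets name 1 gene, 1832 several and 2473 none. Names ending in _s_at (8 of the 30 sets) or _x_at (4) mark probe sets that may also bind other transcripts.

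The miR-490 arrays were compared with the control arrays in R 4.3.3 with limma 3.58.1 (lmFit, eBayes, no trend, no block), two-sided, over all 49293 probe sets at a threshold of 0.05 after Benjamini-Hochberg adjustment. The median standard error was 0.0842 and the number of arrays, 2 per group, limits the precision. The fit was tested on simulated arrays. All member probe sets are named. So are SREBF1, SREBF2, SCAP and INSIG2, the 2 genes with the smallest p of each further list and the brightest marker of each list. PMVK, MVD, MBTPS2 and the glial and glioma markers other than VIM were added after their values were seen. Genes of these lists without a single-gene probe set in the annotation were not analysed here. The members, lists and motifs were chosen with earlier results of these data known. Sequences are from RefSeq tables. Alternatives were quantile normalisation, equal array medians, a variance trend on intensity, a robust prior added to it, bright probe sets only, 1 probe set per gene, an ordinary test, the replicate number as a block and each array left out. Figures were drawn with matplotlib 3.10.9.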

Additional observations from a re-analysis of the deposited data

How the results depend on the processing

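Under each alternative tried, 0 probe sets passed the adjusted threshold, and the lowest adjusted p, 0.335, came from the intensity trend and robust prior. At an unadjusted p under 0.05 there were 2537 as reported, 1209 among probe sets above the median level, 1121 with 1 probe set per gene (fewer were tested in both) and 1679 to 3048 with 1 array left out. The median over the 30 sterol probe sets was -0.1625 to -0.08 with 1 array left out, and the groups did not overlap in 5 of 10 genes on the brightest set alone, against 16.1% of 18132 such sets with miR-490 lower. Of 306 alternatives of single sterol probe sets 16 had the other sign, and 0 passed. With 1 array left out, a fit in which the lone array borrows the spread of the other group, the log2 fold change of the IDI1 sets spanned -0.16 to 0.11 (11739383_a_at) and -0.145 to 0.045 (11744474_s_at). The FDPS sets spanned -0.095 to 0.045 (11718366_s_at) and -0.195 to 0.045 (11758249_s_at), and the LSS sets -0.215 to 0.115 (11717620_a_at) and -0.215 to 0.085 (11724199_x_at). SQLE set 11717729_a_at spanned -0.105 to 0.035, MSMO1 set 11763767_at -0.165 to 0.045, SC5D set 11717949_a_at -0.035 to 0.045, STARD4 set 11736424_a_at -0.115 to 0.065, set 11748321_x_at -0.11 to 0.11 and SREBF2 -0.095 to 0.115. Without a change of sign, MSMO1 set 11740092_x_at spanned -0.25 to -0.01, SC5D set 11757184_a_at -0.475 to -0.065, LSS set 11731324_a_at -0.25 to -0.03 and STARD4 set 11736425_x_at -0.20 to -0.03. SC5D set 11717949_a_at was at -0.0112 after quantile normalisation and -0.005 with equal array medians, and INSIG2 at 0.005 after quantile normalisation; the cause was not tested. Of 152 alternatives of 14 other genes of sterol handling 3 had the other sign, and 0 passed. The counts of lower sets and genes under alternatives, and the alternatives of genes outside the 10, were chosen after seeing the data; quantile normalisation and equal medians put 30 of 30 sets lower. The labels do not say that same-numbered arrays were prepared together, and their deviations correlated at -0.0844 across probe sets. With the replicate number as a block 0 probe sets passed and 1936 had an unadjusted p under 0.05, and it changed no call of the sterol genes. The marker genes, PMVK, MVD and MBTPS2 were run under no alternative. Without detection calls, which dim sets lie above background was not tested.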
